A study of Mus musculus with 6 samples.

Results

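The CDK inhibitor and D cyclin genes were examined in RNA-seq of MEFs (mouse embryonic fibroblasts, dividing connective tissue cells cultured from the embryo) of wild-type (WT) and *Aff3ir-ORF2-/-* mice. They were taken by symbol from a table of 17092 genes: 3 Cip/Kip inhibitors (*Cdkn1a*, *Cdkn1b* and *Cdkn1c*), 4 INK4 inhibitors (*Cdkn2a*, *Cdkn2b*, *Cdkn2c* and *Cdkn2d*) and 3 D cyclins (*Ccnd1*, *Ccnd2* and *Ccnd3*). All 10 symbols were found, and all 10 genes were among the 13075 that passed the filter on low counts. WT MEFs were compared with MEFs carrying a global knockout of *Aff3ir-ORF2*, a coding product of a gene nested in an intron of *Aff3*, with 3 libraries of each genotype. No treatment is named for either genotype. The labels give neither the strain, the passage of a library, nor whether libraries came from separate embryos or cultures. P-values therefore measure only the spread between these libraries. The study's methods give a range of cell passages for all its experiments, but not the passage of each library. *Aff3ir* itself was not analysed here, so the knockout was not checked in these libraries.

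Cells commit to division when cyclin-dependent kinases (CDKs) phosphorylate the retinoblastoma protein and its relatives, which then release E2F factors to switch on the genes of DNA replication. D cyclins, whose transcription follows growth factor signalling, activate CDK4 and CDK6 for this step. INK4 proteins bind CDK4 and CDK6 and keep D cyclins away, whereas Cip/Kip proteins bind cyclin–CDK complexes more broadly and inhibit above all those of CDK2. In cultured MEFs the *Cdkn2a* locus is known for becoming more active with passage, and its products are known for limiting how long such cultures grow.

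Total counts were between 17435133 and 18252330 per library, and levels are given as CPM, counts scaled to the library total with edgeR's TMM factors, which were all between 0.989 and 1.02. Libraries of *Aff3ir-ORF2-/-* MEFs differed more from each other than WT libraries did, with chi-square values over their degrees of freedom of 5.56 to 18.9 against 1.38 to 1.71, and the higher values of that range were both pairs with replicate 2. All 20 macrophage markers on a list were in the table. Their summed level was 22.2 to 25.7 CPM in WT and 1441 to 2451 CPM in *Aff3ir-ORF2-/-* MEFs, with *C1qa*, *C1qb* and *Aif1* at 0 in every WT library. All 19 that could be tested were higher in *Aff3ir-ORF2-/-* MEFs. The part of such cells in the changes below was not tested, and in bulk RNA a change in the share of a cell type and a change in RNA per cell cannot be told apart. All 13 fibroblast markers on a list were expressed in every library. Of 8 endothelial markers 7 were in the table and 5 were tested, with 2 called higher (*Vwf* and *Kdr*) and 2 lower (*Flt1* and *Cdh5*). Their summed level was 172 to 180 CPM in WT and 95.6 to 127 CPM in *Aff3ir-ORF2-/-* MEFs, most of it *Flt1*, while *Pecam1* stayed under 0.3 CPM in every library. The part of endothelial transcripts in the changes below was not tested.

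In *Aff3ir-ORF2-/-* MEFs 5 of the 7 inhibitors rose, *Cdkn2a* by the largest factor and *Cdkn1a* by the largest amount of transcript, and the D cyclins moved in opposite directions, with *Ccnd1* down and *Ccnd2* and *Ccnd3* up. Here a gene rose or fell where the Benjamini-Hochberg adjusted p of edgeR's quasi-likelihood test was under 0.05, and was called where the change also reached 1.5-fold. By this test 9 of the 10 genes changed, 7 upward and 2 downward, against 56.8% of all tested genes in either direction. The called genes were *Cdkn2a*, *Cdkn1a* and *Cdkn2d*, all higher, which is 3 of 10 against 14.2% of all tested genes called higher. None of the 10 was called lower, against 7.27% of all tested genes. The libraries of the genotypes did not overlap in 9 of the 10, against 66% of all tested genes. The median log2 fold change was 0.40 over the 10 genes and 0.01 over all tested genes.

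**Figure D1:**
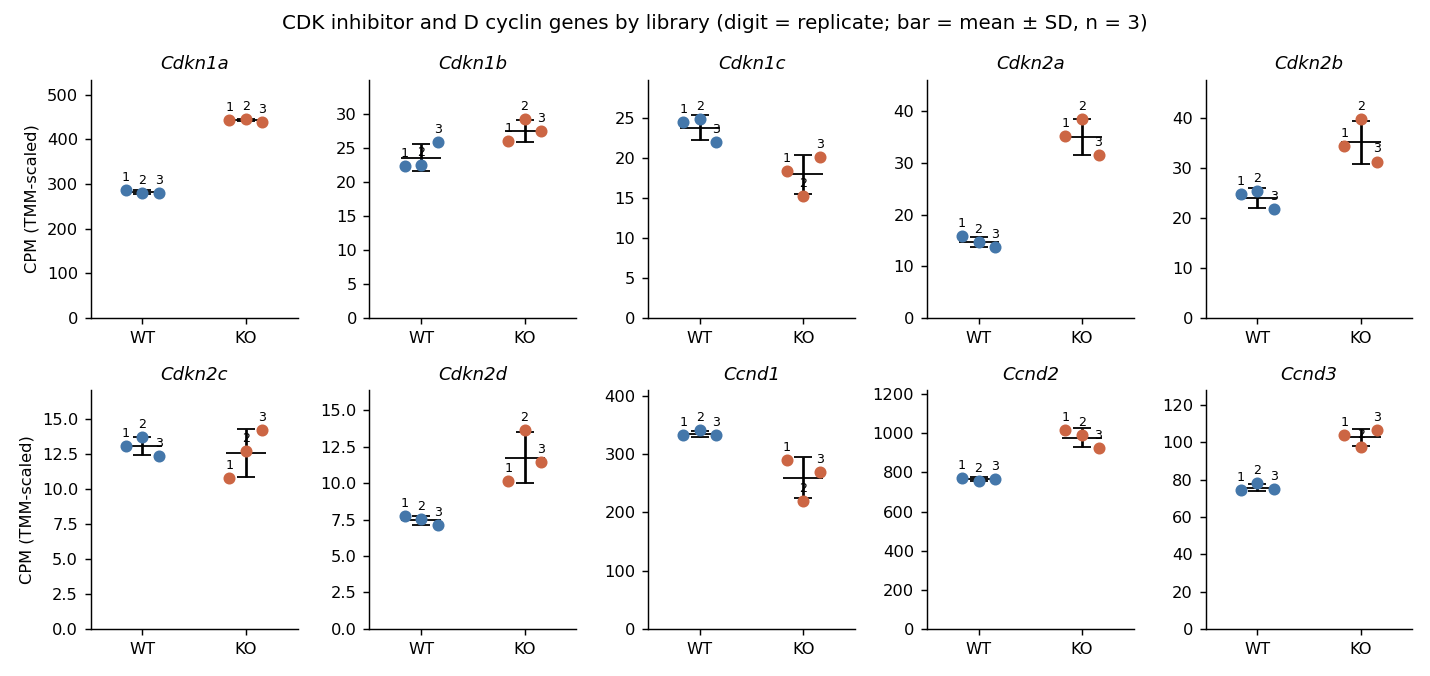
TMM-scaled CPM of the 10 genes on the y axis (linear, from 0) for WT and *Aff3ir-ORF2-/-* (KO) libraries on the x axis; points are libraries with their replicate digit, and bars are the mean ± SD of 3 libraries. Only *Cdkn2c* overlaps between the genotypes, and *Ccnd1* and *Cdkn1c* are the 2 genes with every KO library below every WT library.

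The upstream sequences of the genes that were called, and of *Cdkn2b* beside *Cdkn2a*, are shown to place these genes and the separate starts of *Cdkn2a* that a count per gene joins. The RefSeq promoter table of GRCm38.p6 matched 7 of the 10 genes, with 11 starts; *Ccnd1*, *Ccnd2* and *Cdkn1c* had no entry. Each line gives the 250 bases before a start, 5′ to 3′ on the gene's strand, with capitals where 1 of the searched motifs stood on either strand. The genome build of the counts is another one, so these positions belong to RefSeq only. *Cdkn2a* has 2 starts on the minus strand of chromosome 4. The upstream one, chr4:89294620-89294869, gives the transcript of p19Arf, which stabilises p53, and the downstream one, chr4:89282193-89282442, that of p16Ink4a, which inhibits CDK4 and CDK6. *Cdkn2b*, the neighbouring gene, starts after chr4:89311033-89311282 on the minus strand. *Cdkn2d* starts after chr9:21291210-21291459 on the minus strand, and the downstream of the 2 starts listed for *Cdkn1a* follows chr17:29093519-29093768 on the plus strand. The upstream start of *Cdkn1a*, whose window held none of the searched motifs, is not shown.
Cdkn2a, p19Arf start: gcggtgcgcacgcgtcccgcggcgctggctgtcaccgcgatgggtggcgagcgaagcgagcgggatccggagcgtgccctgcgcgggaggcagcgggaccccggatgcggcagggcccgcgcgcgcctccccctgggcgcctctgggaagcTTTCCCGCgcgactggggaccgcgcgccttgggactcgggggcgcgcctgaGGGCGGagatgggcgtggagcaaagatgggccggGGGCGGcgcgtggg
Cdkn2a, p16Ink4a start: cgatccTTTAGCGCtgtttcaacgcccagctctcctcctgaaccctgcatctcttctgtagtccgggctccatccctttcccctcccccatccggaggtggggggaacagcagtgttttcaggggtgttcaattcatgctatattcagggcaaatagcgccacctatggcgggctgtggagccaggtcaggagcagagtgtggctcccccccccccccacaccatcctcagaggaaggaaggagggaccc
Cdkn2b start: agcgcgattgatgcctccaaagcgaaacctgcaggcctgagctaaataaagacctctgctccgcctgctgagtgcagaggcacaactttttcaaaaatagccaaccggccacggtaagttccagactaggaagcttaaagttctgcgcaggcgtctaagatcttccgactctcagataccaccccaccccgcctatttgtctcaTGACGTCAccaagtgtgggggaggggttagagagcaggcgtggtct
Cdkn2d start: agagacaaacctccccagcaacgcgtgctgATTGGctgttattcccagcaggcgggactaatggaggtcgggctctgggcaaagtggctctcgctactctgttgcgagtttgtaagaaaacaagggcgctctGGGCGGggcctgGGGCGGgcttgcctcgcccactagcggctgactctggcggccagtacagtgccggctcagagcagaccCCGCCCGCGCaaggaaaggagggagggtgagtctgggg
Cdkn1a, downstream start: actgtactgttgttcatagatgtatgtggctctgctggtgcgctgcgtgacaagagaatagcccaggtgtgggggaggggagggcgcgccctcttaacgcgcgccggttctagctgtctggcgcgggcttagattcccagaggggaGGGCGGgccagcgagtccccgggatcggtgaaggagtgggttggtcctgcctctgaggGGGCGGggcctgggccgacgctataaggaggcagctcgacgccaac

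The motifs searched, on both strands, were AP-1 (TGANTCA), the cyclic AMP response element (TGACGTCA), the E-box (CACGTG), an E2F site (TTTNNCGC), an EGR site (GCGNGGGCG), the GC box (GGGCGG, which can overlap the EGR site), the CCAAT box (CCAAT) and the TATA box (TATAAA). Both *Cdkn2a* windows held the E2F letters, 99 to 92 bases before the p19Arf start and 244 to 237 bases before the p16Ink4a start, and 4.28% of 32851 promoter windows of this length did. The cyclic AMP response element stood once before *Cdkn2b*, 46 to 39 bases upstream, and in 1.55% of all windows. GC boxes were found before the p19Arf start (2), *Cdkn2d* (3) and the downstream start of *Cdkn1a* (2), and in 32.7% of all windows. *Cdkn2d* also held an EGR match overlapping a GC box, found in 4.70% of windows, and a CCAAT box, found in 33.8%. GC content was 78.4% before the p19Arf start and 60.0% before the p16Ink4a start, with a median of 52.4% over all windows. These are letter matches only and say nothing of what bound there.

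*Cdkn2a* had the largest change of the 10 genes. It had 273, 258 and 240 counts in WT replicates 1, 2 and 3, and 642, 716 and 578 counts in *Aff3ir-ORF2-/-* replicates 1, 2 and 3. The lowest *Aff3ir-ORF2-/-* library lay far above the highest WT library. The level was 14.7 ± 1.05 CPM in WT and 35.1 ± 3.47 CPM in *Aff3ir-ORF2-/-* MEFs (mean ± SD, n = 3 each). This was a 2.38-fold increase, with a log2 fold change of 1.25 ± 0.09 (SE) and an adjusted p of 5e-06 by edgeR. Its absolute change was larger than that of 92.2% of all tested genes. The table has 1 count per gene, so it does not separate p16Ink4a from p19Arf transcripts, which share their later exons.

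*Cdkn2b*, which encodes p15Ink4b and lies next to *Cdkn2a*, had 427, 446 and 379 counts in WT replicates 1 to 3 and 624, 738 and 573 counts in *Aff3ir-ORF2-/-* replicates 1 to 3. Every *Aff3ir-ORF2-/-* library was above every WT library. The mean rose from 23.9 ± 1.97 to 35 ± 4.25 CPM, a log2 fold change of 0.55 ± 0.10 (SE; adjusted p = 0.00108 by edgeR), which was 1.46-fold and so just under the size needed for a call. *Cdkn2a* rose more than its neighbour: the ratio of *Cdkn2a* to *Cdkn2b* CPM was 0.639, 0.579 and 0.634 in WT replicates 1 to 3 and 1.03, 0.970 and 1.01 in *Aff3ir-ORF2-/-* replicates 1 to 3. The ratios of the genotypes did not overlap, and the ratio was given no test. *Mtap*, a methionine salvage enzyme gene on the other side of the locus, fell by 0.25 on the log2 scale (SE 0.07; adjusted p = 0.0122 by edgeR), with 159 ± 3.33 CPM in WT and 134 ± 13.4 CPM in *Aff3ir-ORF2-/-* MEFs. The rise of both inhibitors was thus not shared by *Mtap*.

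*Cdkn2d*, which encodes p19Ink4d, was the least abundant of the 10 genes by CPM. It had 133, 132 and 124 counts in WT replicates 1 to 3 and 185, 254 and 210 counts in *Aff3ir-ORF2-/-* replicates 1 to 3, again without overlap. It rose from 7.44 ± 0.314 to 11.7 ± 1.76 CPM, by 0.66 ± 0.12 (SE) on the log2 scale (1.58-fold; adjusted p = 0.00142 by edgeR). Without *Aff3ir-ORF2-/-* replicate 2 the log2 fold change was 0.53, which still passed the p threshold but not 1.5-fold.

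*Cdkn2c*, which encodes p18Ink4c, was the 1 inhibitor without a detected change. Its counts were 225, 240 and 216 in WT replicates 1 to 3 and 196, 236 and 260 in *Aff3ir-ORF2-/-* replicates 1 to 3, and the genotypes overlapped. The log2 fold change was -0.06 with a 95% confidence interval from -0.30 to 0.19 (adjusted p = 0.687 by edgeR), so an increase of the size seen for *Cdkn2d* lay outside the interval. The INK4 genes together summed to 59.2 ± 3.70 CPM in WT and 94.4 ± 8.70 CPM in *Aff3ir-ORF2-/-* MEFs.

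*Cdkn1a*, which encodes p21Cip1 and is a classical target of p53, was the inhibitor with the most counts. WT replicates 1, 2 and 3 had 4934, 4930 and 4879 counts, and *Aff3ir-ORF2-/-* replicates 1, 2 and 3 had 8070, 8279 and 8066. It was the steadiest of the 10 genes among *Aff3ir-ORF2-/-* libraries, with a coefficient of variation of 0.563%, where the other 9 lay between 4.54% and 15%. Its level rose from 282 ± 3.69 to 442 ± 2.49 CPM, a 1.57-fold increase with a log2 fold change of 0.65 ± 0.04 (SE; adjusted p = 2.03e-06 by edgeR).

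*Cdkn1b*, which encodes p27Kip1 and is controlled largely through the stability of its protein, changed least among the genes that passed the p threshold. It had 384, 396 and 452 counts in WT replicates 1 to 3 and 472, 543 and 504 counts in *Aff3ir-ORF2-/-* replicates 1 to 3. In CPM the highest WT library, 25.9, nearly met the lowest *Aff3ir-ORF2-/-* library, also 25.9 at this rounding. The log2 fold change was 0.22 ± 0.08 (SE; adjusted p = 0.0340 by edgeR). The p threshold was no longer met with DESeq2's Wald test (adjusted p = 0.0809) and without WT replicate 1 (0.133), WT replicate 2 (0.130), *Aff3ir-ORF2-/-* replicate 2 (0.0556) or *Aff3ir-ORF2-/-* replicate 3 (0.0614).

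*Cdkn1c*, which encodes p57Kip2 and is an imprinted gene expressed from the maternal allele, was the 1 inhibitor that fell. WT replicates 1 to 3 had 423, 436 and 384 counts, and *Aff3ir-ORF2-/-* replicates 1 to 3 had 335, 285 and 370. Every *Aff3ir-ORF2-/-* library was below every WT library. The level went from 23.8 ± 1.56 to 18 ± 2.46 CPM, and the log2 fold change was -0.41 ± 0.10 (SE; adjusted p = 0.00742 by edgeR). *Cd81*, a tetraspanin gene near *Cdkn1c*, rose by 0.32 ± 0.04 (SE) on the log2 scale (adjusted p = 0.000158 by edgeR). Whether the imprinted domain changed as a whole was not tested. Of 12 neighbours of the inhibitor loci on a list, 10 were in the table and 6 were tested, with 2 rising, 2 falling and none called in either direction.

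**Figure D2:**
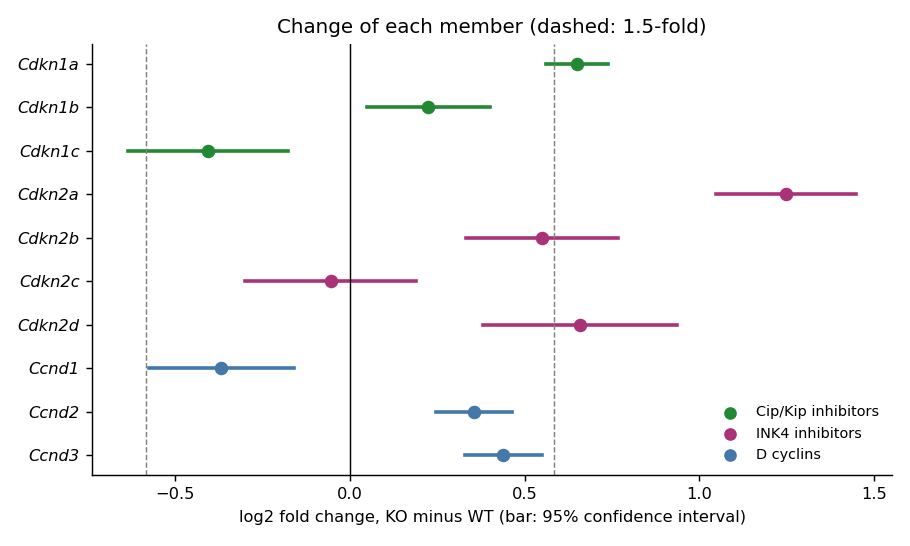
Log2 fold change of each gene, *Aff3ir-ORF2-/-* (KO) minus WT, on the x axis, with points for edgeR estimates and bars for 95% confidence intervals; colours mark the class and dashed lines a 1.5-fold change. *Cdkn2a* at 1.25 stands apart from the rest, which lie between -0.41 and 0.66, and the interval of *Cdkn2c* alone spans 0.

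The D cyclins diverged. *Ccnd1*, the D cyclin gene most tied to growth factor and Ras signalling, had 5727, 5993 and 5800 counts in WT replicates 1 to 3 and 5272, 4103 and 4939 counts in *Aff3ir-ORF2-/-* replicates 1 to 3. All *Aff3ir-ORF2-/-* libraries were below the WT libraries, and they were also more spread, at 260 ± 35.6 CPM against 335 ± 5.10 CPM. The log2 fold change was -0.37 ± 0.09 (SE; adjusted p = 0.00891 by edgeR), a level of 0.775 of that in WT.

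*Ccnd2*, the most abundant of the 10 genes by CPM, had 13306, 13252 and 13427 counts in WT replicates 1 to 3 and 18495, 18488 and 17004 counts in *Aff3ir-ORF2-/-* replicates 1 to 3. It rose from 765 ± 9.56 to 978 ± 46.1 CPM, by 0.35 ± 0.05 (SE) on the log2 scale (adjusted p = 0.000211 by edgeR). *Ccnd3*, the third D cyclin gene, had 1282, 1372 and 1310 counts in WT replicates 1 to 3 and 1897, 1818 and 1956 counts in *Aff3ir-ORF2-/-* replicates 1 to 3. It rose from 75.8 ± 1.97 to 103 ± 4.67 CPM, by 0.44 ± 0.05 (SE) on the log2 scale (adjusted p = 6.2e-05 by edgeR). Neither gene overlapped between genotypes, and none of the D cyclins reached 1.5-fold.

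Summed D cyclin transcripts did not fall. They amounted to 1176 ± 2.76 CPM in WT and 1341 ± 59.9 CPM in *Aff3ir-ORF2-/-* MEFs, and the makeup shifted from *Ccnd1* towards *Ccnd2*. The ratio of *Ccnd2* to *Ccnd1* CPM was 2.32, 2.21 and 2.31 in WT replicates 1 to 3 and 3.51, 4.51 and 3.44 in *Aff3ir-ORF2-/-* replicates 1 to 3. Per kilobase of the longest coding transcript in GENCODE M21, *Ccnd1* made up 36.4 ± 0.434% of the summed D cyclin level in WT and 25.4 ± 2.53% in *Aff3ir-ORF2-/-* MEFs. The share of *Ccnd2* was 49.1 ± 0.765% and 56.7 ± 2.81%, and that of *Ccnd3* 14.6 ± 0.334% and 17.9 ± 0.823%. The shares did not overlap between genotypes, and, being scores over these genes, they were not tested. Between the genotypes the share of *Ccnd3* differed by 3.29 percentage points per transcript length but by 1.23 as a share of counts and 1.21 per coding length, with the same direction.

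**Figure D3:**
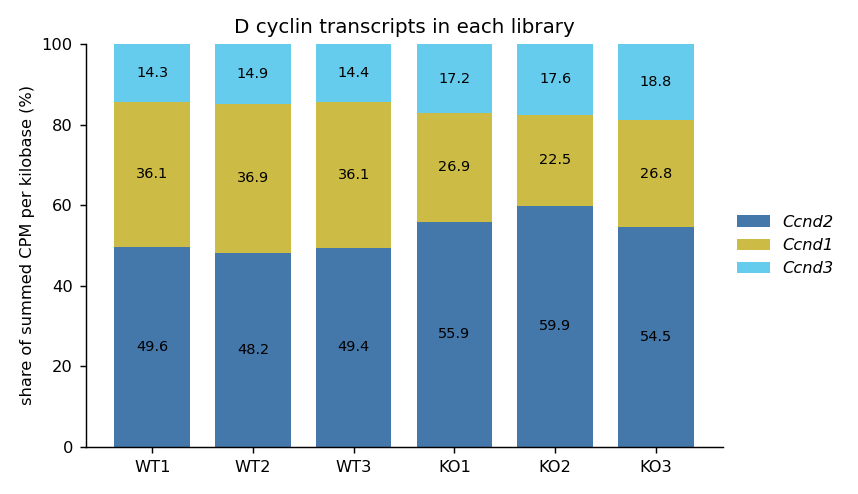
Stacked bars give the share (%, y axis from 0 to 100) of *Ccnd2*, *Ccnd1* and *Ccnd3* in the summed CPM per kilobase of D cyclins for each WT and *Aff3ir-ORF2-/-* (KO) library on the x axis. The *Ccnd1* band is 36.1% to 36.9% in WT and 22.5% to 26.9% in KO libraries, with the lowest in KO replicate 2.

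Ordered by level per kilobase of transcript in WT, *Cdkn1a* (136 CPM per kb) led, followed by *Ccnd2* (121), *Ccnd1* (89.6) and *Ccnd3* (35.9). *Cdkn2b* (17.2) and *Cdkn2a* (16.5) came next and overlapped between libraries, then *Cdkn1c* (12.5). *Cdkn2c* (5.27), *Cdkn2d* (5.23) and *Cdkn1b* (5.18) did not differ beyond their spread. In *Aff3ir-ORF2-/-* MEFs the upper 4 kept this order, *Cdkn2a* (39.2 CPM per kb) stood above *Cdkn2b* (25.2) with no overlap between libraries, and *Cdkn2c* (5.07) was last, overlapping *Cdkn1b* (6.04). *Cdkn1c* (9.44) and *Cdkn2d* (8.25) overlapped there as well. The order depended on the length used: per coding length *Ccnd2* (882 CPM per kb) stood above *Cdkn1a* (591) in WT. By that length *Cdkn1b* (39.9) was not last in WT but above *Cdkn2a* (29.1), *Cdkn2c* (25.8) and *Cdkn2d* (14.9). In *Aff3ir-ORF2-/-* MEFs *Cdkn2b* (89.8) stood above *Cdkn2a* (69.2) per coding length. In CPM without any length the latter pair was level, at 35.1 for *Cdkn2a* and 35 for *Cdkn2b*. Some annotated genes overlap these on the opposite strand in GENCODE M21, *Bysl* with *Ccnd3* and *LTO1* with *Ccnd1* among protein-coding ones. Whether counting used strand is not given in the sources used here, so reads of such pairs cannot be told apart.

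Within *Aff3ir-ORF2-/-* MEFs, replicate 2 held the extreme value of 7 of the 10 genes in the direction of their change. All 5 inhibitors that rose were highest in it, and both genes that fell, *Ccnd1* and *Cdkn1c*, were lowest in it. For *Cdkn1a* this rests on almost equal levels, at 443, 444 and 440 CPM in replicates 1, 2 and 3. The other 3 did not do so: *Ccnd2* was highest in replicate 1, *Ccnd3*, which rose, was lowest in replicate 2, and *Cdkn2c* was highest in replicate 3. *Cdkn2a*, for example, had 35.2, 38.4 and 31.5 CPM in replicates 1, 2 and 3, and *Ccnd1* had 290, 220 and 269 CPM. All 22 genes of a list of S phase genes were lowest in replicate 2 too, with a summed level of 1302, 1036 and 1380 CPM in replicates 1, 2 and 3. By the chi-square values above, replicate 2 differed most from the other *Aff3ir-ORF2-/-* libraries. The share of all tested genes with their extreme in it was not counted. The summed macrophage markers were at 1441, 1993 and 2451 CPM in replicates 1, 2 and 3, a sum of which *Lyz2* made up the larger part. Of the 20 markers 16 were highest in replicate 3 and 4, *C1qa* and *C1qc* among them, in replicate 2. Without replicate 2, *Cdkn2a* was still 1.17 higher on the log2 scale, *Cdkn1a* 0.64 higher and *Ccnd1* 0.27 lower.

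Genes around these regulators in the same pathway were read from lists drawn up for this purpose, and described by counts and medians beside the median of 0.01 over all tested genes. Of the 13075 tested genes 3831 rose and 3591 fell, with 14.2% called higher and 7.27% called lower. Among 17 CDKs, other cyclins and CDK-modifying enzymes 13 fell, 1 rose, 5 (29.4%) were called lower and none higher, with a median log2 fold change of -0.36. The partners of the D cyclins split: *Cdk4* fell by 0.36 on the log2 scale (SE 0.04; adjusted p = 0.000118 by edgeR), whereas *Cdk6* was at 58.2 ± 1.18 CPM in WT and 62.6 ± 4.26 CPM in *Aff3ir-ORF2-/-* MEFs (log2 fold change 0.11, adjusted p = 0.146 by edgeR). *Cdk2*, the main kinase held by Cip/Kip proteins, fell by 0.58 on the log2 scale, which lay at the 1.5-fold line. Its E cyclin partners *Ccne1* and *Ccne2* fell by 0.76 and 1.08 on the log2 scale. *Ccna2*, the cyclin A gene of S phase, fell by 0.70, and *Pkmyt1*, which encodes a kinase that restrains CDK1, fell by 0.98. *Cdk1*, the mitotic kinase gene, fell by 0.47 on the log2 scale (adjusted p = 0.0274 by edgeR), but its adjusted p rose to 0.0559, 0.0660 and 0.0695 without WT replicates 1, 2 and 3 and to 0.0565 without *Aff3ir-ORF2-/-* replicate 1. Over 14 alternatives read at adjusted p, *Cdk1* lost the threshold in 5.

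Among 17 pocket protein, E2F and associated genes 8 fell and 3 rose, with 3 (17.6%) called lower and 1 (5.88%) higher (median -0.23). *Rbl1*, which encodes the retinoblastoma relative p107 and is itself an E2F target, went from 56.0 ± 0.440 to 27.6 ± 2.37 CPM (log2 fold change -1.02 ± 0.07, SE; adjusted p = 2.9e-06 by edgeR). *Rb1*, the retinoblastoma gene, rose by 0.26 and its relative *Rbl2* by 0.18 on the log2 scale. Their adjusted p values of 0.0125 and 0.0479 by edgeR were not kept with DESeq2's Wald test (0.0565 and 0.118). That of *Rbl2* was 0.0557 to 0.174 when any single library other than WT replicate 3 was left out. Over 14 alternatives read at adjusted p, *Rb1* lost the threshold in 2 and *Rbl2* in 9. The repressive E2F genes *E2f7* and *E2f8* fell by 1.35 and 1.09 on the log2 scale, and *E2f2*, an activating E2F gene at 1.78 CPM in WT, rose by 1.01.

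The replication genes downstream moved together. All 22 genes of the S phase list fell, 19 of them (86.4%) called lower, with a median log2 fold change of -0.98. The genotypes did not overlap in any of the 22, and in 66% of all tested genes they did not. Among those with the largest changes were *Chaf1b* (-1.30), a chromatin assembly factor subunit, and *Uhrf1* (-1.25), a DNA methylation maintenance factor. *Mcm6*, a subunit of the replicative helicase, went from 233 ± 6.62 to 104 ± 13.3 CPM (log2 fold change -1.17 ± 0.09, SE; adjusted p = 1.42e-05 by edgeR). The mitosis list was less affected in number: 12 of 19 genes fell, 5 (26.3%) were called lower and none higher (median -0.37). Its called genes with the largest changes were *Aurkb* (-0.79), *Top2a* (-0.73), *Birc5* (-0.63) and *Kif11* (-0.63). The count of mitosis genes called lower was 2 without *Aff3ir-ORF2-/-* replicate 2 and 8 without *Aff3ir-ORF2-/-* replicate 3.

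**Figure D4:**
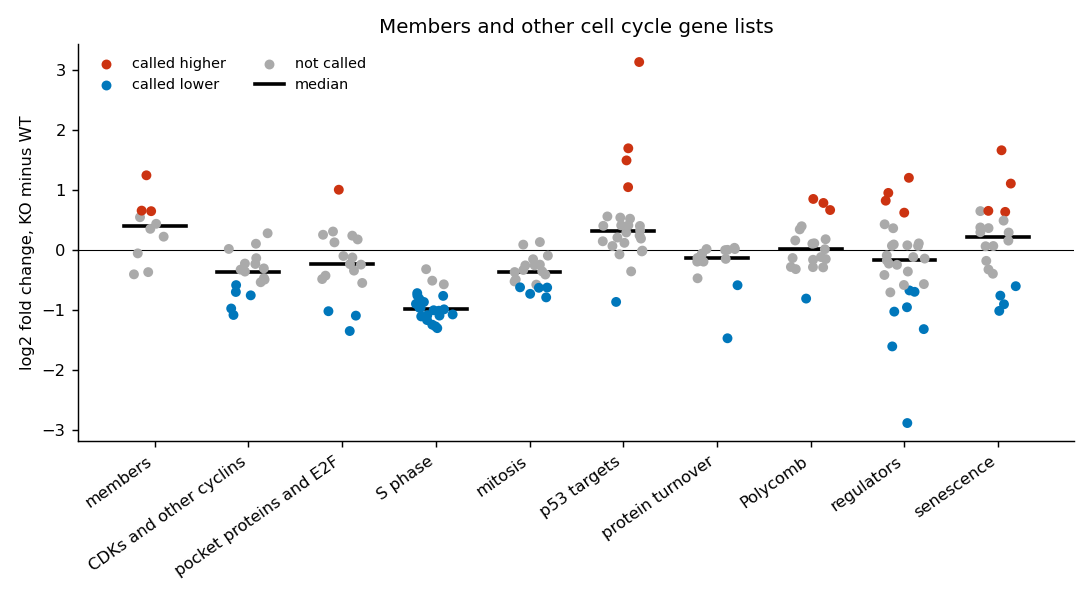
Log2 fold change, *Aff3ir-ORF2-/-* minus WT, on the y axis for the tested genes of each list named on the x axis, with the 10 inhibitor and D cyclin genes (members) at the left; red points were called higher, blue points called lower, grey points not called, and bars are medians. The S phase list lies wholly below 0, with a median of -0.98, whereas the members have a median of 0.40.

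Since *Cdkn1a* is a p53 target, its change was set beside 24 other targets of p53. Of these 15 rose and 1 fell, where 3831 rose and 3591 fell of all 13075 tested genes. Of the 24 targets 4 were called higher and 1 lower, with a median log2 fold change of 0.31. The called shares, 16.7% higher and 4.17% lower, were near the 14.2% and 7.27% of all tested genes. Those called higher were *Perp* (3.14), *Pmaip1* (1.70), *Trp53inp1* (1.5) and *Fas* (1.05), which encode mediators of cell death or of the p53 response. *Ccng1*, a cyclin G gene that p53 activates, rose by 0.54 and *Mdm2*, the gene of the ligase that degrades p53, by 0.24 on the log2 scale, whereas *Plk2*, a kinase gene, fell by 0.87. *Trp53*, the p53 gene itself, fell from 142 ± 4.78 to 122 ± 3.18 CPM (log2 fold change -0.23 ± 0.05, SE; adjusted p = 0.00204 by edgeR). Among the other targets *Bax* (-0.01, adjusted p = 0.855) and *Zmat3* (0.07, adjusted p = 0.217), named after their values were seen, did not pass edgeR's test. The part of p53 in these changes was not tested.

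Of 19 Polycomb and demethylase genes, known for silencing or opening the *Cdkn2a* locus, 7 rose and 5 fell (median 0.01), with 15.8% called higher and 5.26% lower, also near those shares. *Ezh2*, the histone H3 lysine methyltransferase of proliferating cells, fell from 58.5 ± 1.07 to 33.4 ± 5.41 CPM (log2 fold change -0.81 ± 0.11, SE; adjusted p = 0.000283 by edgeR). Its relative *Ezh1* rose from 12.0 ± 0.743 to 20.8 ± 0.687 CPM (log2 fold change 0.79 ± 0.08, SE; adjusted p = 2.72e-05 by edgeR). *Cbx8*, a chromodomain subunit gene, rose by 0.85 on the log2 scale. *Bmi1*, the Polycomb gene best known for repressing *Cdkn2a*, rose by 0.18 (SE 0.05; adjusted p = 0.00989 by edgeR), which was not kept without WT replicate 2 (adjusted p = 0.0572).

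Of 29 known regulators of these genes 11 fell and 5 rose, with 7 called lower and 4 higher (median -0.17). In percent this was 24.1% called lower and 13.8% called higher, against 7.27% and 14.2% of all tested genes. *Egr1*, an immediate-early gene, went from 358 ± 32.5 to 48.3 ± 6.47 CPM (log2 fold change -2.89). *Fosl1*, an AP-1 gene, changed by -1.61, *Myc* by -1.32 and *Klf6*, a Krüppel-like factor gene, by -0.95 on the log2 scale. Of these, *Myc* is known to repress *Cdkn1a* and *Cdkn2b* and to activate *Ccnd2*, and AP-1 to activate *Ccnd1*. *Jun* (-1.03), *Junb* (-0.70) and *Ets1* (-0.67) were also called lower and *Stat3* (0.625) higher, all named after their values were seen. *Foxo1* (0.82) and *Foxo3* (0.95), forkhead factors known to activate *Cdkn1b*, were called higher and are named after their values were seen. *Tbx2*, a repressor of *Cdkn2a* at 2 CPM in WT, rose by 1.21 on the log2 scale. *Ctnnb1*, the β-catenin gene, was at 0.07 (adjusted p = 0.195 by edgeR). Target genes are given here for some regulators only, and the part of any listed regulator in the changes above was not tested.

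Genes for the turnover of these proteins were mostly steady at the transcript level, with 5 of 15 tested genes falling, none rising and a median of -0.13. Of them 2 (13.3%) were called lower, against 7.27% of all tested genes. *Dtl*, the substrate receptor that marks p21Cip1 for destruction in S phase, had the largest change of them, from 50.9 ± 0.142 to 18.3 ± 1.17 CPM (log2 fold change -1.47 ± 0.06, SE; adjusted p = 4.69e-07 by edgeR). *Skp2*, the receptor for p27Kip1, fell by 0.59 on the log2 scale (SE 0.07; adjusted p = 8.22e-05 by edgeR), at the 1.5-fold line. It did not reach 1.5-fold without WT replicate 1 (-0.57), WT replicate 3 (-0.58) or *Aff3ir-ORF2-/-* replicate 2 (-0.53), so that *Dtl* was then the 1 gene called lower. *Gsk3b*, the gene of a kinase that promotes export and destruction of cyclin D1, fell by 0.19, and *Ddb1*, the adaptor to which *Dtl* binds, was at 0.00 (adjusted p = 0.937 by edgeR).

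Of 20 genes linked to senescence, in which p16Ink4a and p21Cip1 are the usual markers, 6 rose and 5 fell, with 4 called in each direction (median 0.23), or 20% against 14.2% of all tested genes higher and 7.27% lower. *Il6*, a secreted cytokine gene, rose by 1.67 on the log2 scale from 2.09 ± 0.369 CPM, and *Timp1*, a metalloproteinase inhibitor gene, by 1.11 from 228 ± 2.26 CPM. *Lmnb1*, the lamin B1 gene whose loss accompanies senescence, fell by 0.91, and *Hmgb2*, a chromatin protein gene, by 1.02. *Hmga2*, a chromatin protein gene with many counts, had 861, 579 and 829 CPM in *Aff3ir-ORF2-/-* replicates 1, 2 and 3 and 930 to 959 CPM in WT. Its log2 fold change was -0.32 (adjusted p = 0.106 by edgeR), and without *Aff3ir-ORF2-/-* replicate 2 it was -0.17 (adjusted p = 0.000226 by edgeR).

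The genes whose centred log2 CPM over the 6 libraries lay nearest to that of *Cdkn2a* were *Map1a*, a microtubule-associated protein gene, at a Euclidean distance of 0.087, *Slc9a3r1*, a scaffold protein gene, at 0.136, and *Zbtb4*, a zinc finger gene, at 0.159. *Map1a* was at 71.3 ± 2.60 CPM in WT and 173 ± 18.9 CPM in *Aff3ir-ORF2-/-* MEFs.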

How the data were processed

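RNA of MEFs, 3 WT and 3 *Aff3ir-ORF2-/-* libraries, was sequenced on a DNBSEQ instrument and reads were filtered with SOAPnuke, by the study's methods. The values deposited by the authors are expected counts of each gene in each library, without normalization; the submitters' processing notes name the build mm8, and the aligner, counting tool and strand setting are not given in the sources used here. Between 10.6% and 11.3% of a library's values were not whole (2 of the 10 genes examined, *Ccnd1* and *Ccnd3*, had such values), and all were rounded. After filterByExpr (minimum count 10, total 15) 13075 genes were tested with edgeR 4.0.16 (TMM, robust quasi-likelihood, no covariates, R 4.3.3) and Benjamini-Hochberg adjustment over all of them. Standard errors and 95% intervals come from the F statistic. On simulated data edgeR called 199 of 199 genes changed 3-fold, and 2 others, of 12970 genes. The simulated spread was the same for all genes and both genotypes. It thus does not show how well smaller changes, such as those of the 10 genes, are recovered. The correlation of deviations of same-numbered libraries was 0.039, 0.042 and 0.015, against -0.037 to 0.005 for differently numbered ones. All were small, and numbers were not treated as pairs. Alternatives were run in 16 settings (limma 3.58.1, DESeq2 1.42.0). Transcript lengths came from GENCODE M21, and promoter sequences from RefSeq. Figures used Python 3.11.15 with matplotlib 3.10.9.

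The genes and all lists were chosen with earlier results of these data known. Named are all 10 genes and 14 pathway genes whatever their values, from each list up to 4 called genes (mean log2 CPM at least 1) with the largest change and up to 2 with the most counts, and the 3 genes nearest to the member with the largest called change. Other genes are named after their values were seen. No set test was run. *Aff3ir* was not analysed here. Some genes that the rule names are not reported here, though list counts include them.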

Additional observations from a re-analysis of the deposited data

How the results depend on the processing

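Of 150 values of the 10 genes under the alternatives, 144 kept their direction and side of the p threshold. These include, for each gene, the main fit read at unadjusted p, which a gene that passed could not fail. *Cdkn1b* was at 0.22 on the log2 scale (adjusted p = 0.0809) with DESeq2's Wald test and at 0.176 to 0.294 when single libraries were left out. *Cdkn2c* ranged from -0.154 to 0.038 over the libraries left out, turning positive without *Aff3ir-ORF2-/-* replicate 1. Between 2 and 4 of the 10 genes were called higher over the libraries left out, and none lower. *Ddb1* turned to -0.01 without a filter and ranged from -0.019 to 0.02 over libraries left out. With a 2-fold threshold the counts called higher or lower became 1096 and 317 over all genes, 1 higher for the 10 genes, 1 lower for CDKs and cyclins, 10 lower for S phase, 0 lower for mitosis and for p53 targets, 1 lower for turnover, 0 and 0 for Polycomb, 1 and 4 for regulators, and 2 and 1 for senescence. Mitosis genes called lower ranged from 2 to 8 over libraries left out. Turnover genes called lower were 1 to 2 over libraries left out and 1 with upper quartile scaling, with total counts only and with at least 10 counts in every library. The *Ccnd3* share differed by 1.23 percentage points by counts and by 1.21 per coding length, a setting chosen after seeing the data. Whether same-numbered libraries shared more than a number is not given in the labels. With the replicate number as a block, 1854 genes were called higher and 954 lower, and 3 of the 10 genes were called higher. *Cdkn2a* was then at 1.25, *Cdkn1a* at 0.65, *Cdkn1b* at 0.23 and *Ccnd1* at -0.38. All numbers rest on 3 libraries per genotype, and among the 10 genes *Cdkn2d*, with the fewest counts, had the widest interval.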
